A study of Arabidopsis thaliana and Zea mays with 12 samples.

Results

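UDP-glycosyltransferases of family 1 (UGTs) are enzymes that move a sugar, most often glucose, from a UDP-sugar onto a small molecule. In Arabidopsis thaliana their acceptors include lignin precursors, flavonoids, plant hormones, defence compounds and foreign chemicals, and the added sugar usually makes the acceptor more soluble and fit for storage in the vacuole. Many of these genes lie in tandem arrays of close paralogs, and a UGT name gives a family number, a subfamily letter and a gene number, so that UGT72E1 and UGT72E2 are closely related.

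The genes described here are those whose annotated symbol is UGT followed by a digit, read by a probe set (the group of short probes that measures a transcript) annotated to exactly 1 gene. UGT74B1 and UGT74C1, enzymes of glucosinolate synthesis, were set aside. This gave 46 genes of 20 subfamilies, each with 1 probe set, among the 22746 Arabidopsis probe sets and the 40367 of both species. A further 3 probe sets whose annotation lists a UGT beside another gene were left out. The names of 46 of 46 probe sets lack the manufacturer's mark for probes shared between transcripts.

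Leaf RNA of 2-week-old Arabidopsis plants was compared between a phenotype named Ag and another named Br, with 3 one-colour ATH1 arrays for each. The labels give no genotype, accession or treatment for either name, and the shoots were cut near midday. Each array held RNA pooled from several plants and is called a biological replicate, so the spread between arrays is a spread between pools, and p-values measure that spread. Whether fewer cells of a type or less RNA per cell lie behind a lower signal cannot be told apart in such samples. It was also not tested whether the probes match the transcripts of both phenotypes equally well.

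The nuclear photosynthesis genes RCA, LHCB4.1 and PSAE-1 read between 4237 and 7185 on the 6 arrays. Each of them was lower in Br, without overlap of the groups. RCA read 4553 to 6567 in Ag and 4237 to 4435 in Br. LHCB4.1 read 5379 to 7185 and 4717 to 5279, and PSAE-1 5969 to 6346 and 4519 to 5417. The root hair expansins EXPA7 and EXPA18 read between 3.09 and 17.0. The plastid gene rbcL, for the large subunit of Rubisco, was dimmer than the nuclear leaf genes and higher in Br, at 148 to 261 in Ag and 457 to 596 in Br. These were the measured ones of 8 leaf and 6 root markers. The summed signal of the 4 leaf markers ran from 16161 to 20281 in Ag and from 14306 to 15440 in Br, and that of the 2 root markers from 15.5 to 21.7 and from 12.0 to 18.8. Ratios of 3′ to 5′ signal of a control transcript, a sign of RNA quality, also moved with the groups for ubiquitin and actin, at 1.76 to 2.35 in Ag and 0.908 to 1.21 in Br for ubiquitin and 1.90 to 2.35 and 1.20 to 1.74 for actin (two-sided exact permutation test on either ratio, p = 0.10, which is the lowest value that 6 arrays can give). The GAPDH ratio overlapped, at 0.794 to 0.903 in Ag and 0.718 to 0.800 in Br (two-sided exact permutation p = 0.20). The first Br array stood apart from its group, with a score of 5.57 on the first principal component. Br scores were otherwise 34.5 and 42.6, and Ag scores -32.8 to -24.6. The part of these differences in the results below was not tested.

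Of the 46 UGT genes, 1 was higher and 3 were lower in Br, and 42 did not pass the test (limma, Benjamini-Hochberg adjusted p under 0.05 across 22746 probe sets). UGT76E11 rose, and UGT72E1, UGT73B1 and UGT84A3 fell. The count of 4 fell to 0 without replicate 2 or 3 of either phenotype and to 1 without the first Ag array. The 4 are 8.70% of the UGT genes, and 2.08% of all probe sets passed, 0.963% as higher and 1.12% as lower in Br. At an unadjusted p under 0.05 the share was 7 of 46, or 15.2%, against 16.1% of all probe sets, and 6 of the 7 were lower in Br. The split by direction over all probe sets was not counted at that threshold. The median log2 change of the 46 genes was -0.040 and that of all probe sets -0.0018. The middle 50% of the UGT genes lay between -0.22 and 0.080, and the middle 50% of all probe sets between -0.17 and 0.17.

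Log2 changes throughout are Br minus Ag on the scale of log2(intensity + 16) after quantile normalization of the 6 arrays. The added 16 keeps noise of dim probe sets down and makes the change of a dim gene look smaller than the ratio of its signals. Signals printed are the deposited intensities in arbitrary units. A probe set's signal depends on its probes as well as on its transcript, so bright and dim describe probe sets here and do not rank transcript amounts between genes.

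Most UGT genes gave little signal in these leaves. The mean over the 6 arrays was under 16 for 24 genes, from 16 to under 32 for 5, and at least 32 for 17. The median of these means was 12.9, against 36.9 for all probe sets. On each of the 6 arrays, 26 genes read below that array's median probe set (32.3 to 37.5), and 11 read above it on each. None of the 17 genes that stayed under 10 on all 6 arrays passed, and the added 16 compresses changes at such signals. Detection calls were not used here, so a low signal is not called absent.

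**Figure D1:**
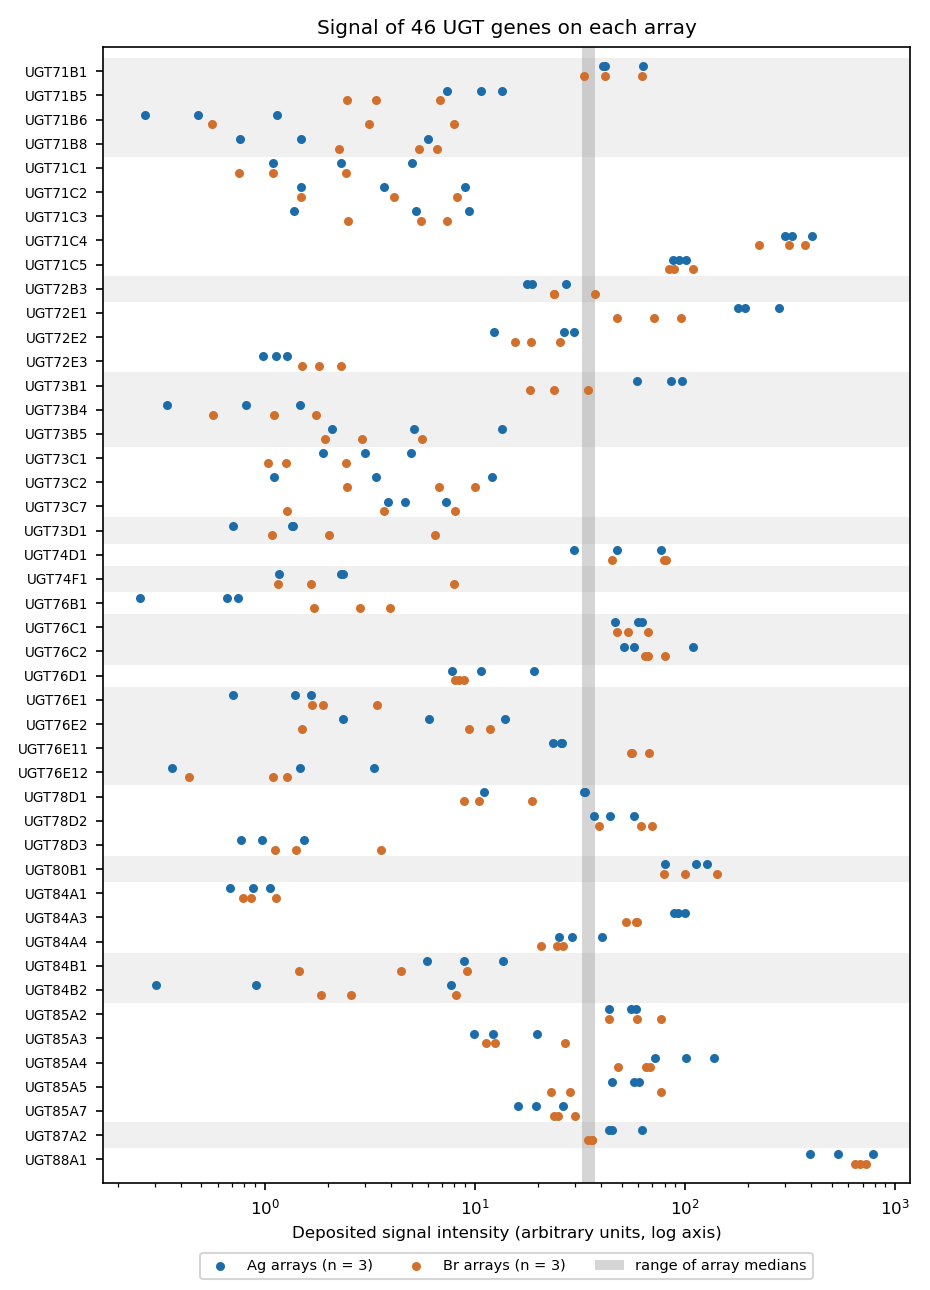
Deposited signal of the 46 UGT genes (rows, grouped by subfamily with shading) on the 3 Ag and 3 Br arrays, on a log axis; the grey bar spans the array medians, 32.3 to 37.5. Within each array UGT88A1 lies to the right of every other gene, and 17 genes stay under 10 on all 6 arrays.

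The genes of the UGT72 and UGT84A groups act on phenylpropanoids, the aromatic compounds from which lignin and sinapate esters are made. UGT72E1, which glucosylates coniferyl and sinapyl aldehydes, read 193, 179.8 and 280.1 on the 3 Ag arrays and 96.1, 71.4 and 47.4 on the 3 Br arrays. Its highest Br value was thus below its lowest Ag value. The mean fell 3.04-fold, from 218 ± 54.5 to 71.6 ± 24.3 (SD, n = 3). The log2 change was -1.45 ± 0.25 (SE) with a limma adjusted p of 0.040. This was the most negative change of the 46 genes.

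The subfamily mates of UGT72E1 glucosylate the monolignol alcohols. UGT72E2 read 26.4, 12.3 and 29.7 in Ag and 18.5, 15.5 and 25.4 in Br. Its groups overlapped, and its log2 change of -0.17 did not pass (95% interval -0.60 to 0.26, limma adjusted p = 0.72). UGT72E3 was at 2.31 or less on all 6 arrays. The change of UGT72E1 was more negative than that of UGT72E2 by 1.28 ± 0.35 (SE, n = 3), without overlap of the groups. The two-sided exact permutation p for that difference was 0.10, the smallest possible, and 0.20 when adjusted over the 2 pairs of mates compared. At 0.05 such a test cannot pass with so few arrays, so it does not decide whether the 2 changes differ. UGT72B3, of the sister subfamily, read 17.8 to 27.3 in Ag and 23.8 to 37.3 in Br and did not pass (limma adjusted p = 0.72).

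UGT84A enzymes make glucose esters of hydroxycinnamic acids such as ferulate and sinapate. UGT84A3 read 92.5, 88.7 and 101 in Ag and 59.2, 58.5 and 52.5 in Br. The arrays of a group lay close together and the groups were well apart. The mean fell 1.65-fold, from 93.9 ± 6.03 to 56.8 ± 3.67 (SD, n = 3). The log2 change was -0.64 ± 0.11 (SE) with a limma adjusted p of 0.040.

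UGT84A4 lies next to UGT84A3 on chromosome 4. It read 40.5, 25.2 and 29.0 in Ag and 20.6, 26.4 and 24.7 in Br. These deposited values overlapped, while the normalized ones did not. Its log2 change was -0.32 (95% interval -0.66 to 0.016, limma adjusted p = 0.33). The changes of UGT84A3 and UGT84A4 differed by -0.32 ± 0.15 (SE, n = 3), with overlap of the groups (two-sided exact permutation p = 0.20, and 0.20 adjusted over the 2 pairs). The third gene of that array, UGT84A1, stayed at 1.13 or less on all 6 arrays.

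UGT73 enzymes include several known from pathogen and stress responses and from the detoxification of foreign compounds. UGT73B1 read 58.9, 85.6 and 96.7 in Ag and 34.5, 23.9 and 18.3 in Br. Each Br array was below each Ag array, and the first arrays of the groups were the closest. The mean fell 3.15-fold, from 80.4 ± 19.4 to 25.5 ± 8.22 (SD, n = 3). The log2 change was -1.27 ± 0.21 (SE) with a limma adjusted p of 0.037.

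The other UGT73 genes were dim. UGT73B4, whose product can glucosylate the breakdown products of the explosive TNT, read at most 1.75, and UGT73B5, which takes part in the response to bacteria, read 2.08 to 13.4 in Ag and 1.93 to 5.58 in Br. UGT73C1, UGT73C2, UGT73C7 and UGT73D1 had highest values of 4.96, 12.1, 8.04 and 6.46. Over UGT73B4, UGT73B5 and these 4, the log2 change ran from -0.23 to 0.12, and limma adjusted p from 0.58 to 0.98.

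The UGT76 family holds enzymes of flavonoid, cytokinin and defence metabolism. UGT76E11, which has been found to act on flavonoids, read 26.1, 25.7 and 23.5 in Ag and 55.7, 67.4 and 55.4 in Br. The lowest Br value was over the highest Ag value by more than the spread of either group. The mean rose 2.37-fold, from 25.1 ± 1.38 to 59.5 ± 6.86 (SD, n = 3). The log2 change was 0.81 ± 0.13 (SE) with a limma adjusted p of 0.029. It had the lowest adjusted p and the most positive log2 change of the 46 genes.

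The other 3 UGT76E genes stayed dim in both phenotypes. UGT76E12, its neighbour on chromosome 3, read at most 3.31, and UGT76E1, known to glucosylate 12-hydroxyjasmonate, at most 3.42. UGT76E2 read 13.9, 6.02 and 2.36 in Ag and 1.50, 11.9 and 9.34 in Br, with as much spread within a group as between them. Log2 changes of these 3 lay between -0.090 and 0.065 (limma adjusted p from 0.79 to 0.98), and the subfamily's median over 4 genes was 0.020.

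**Figure D2:**
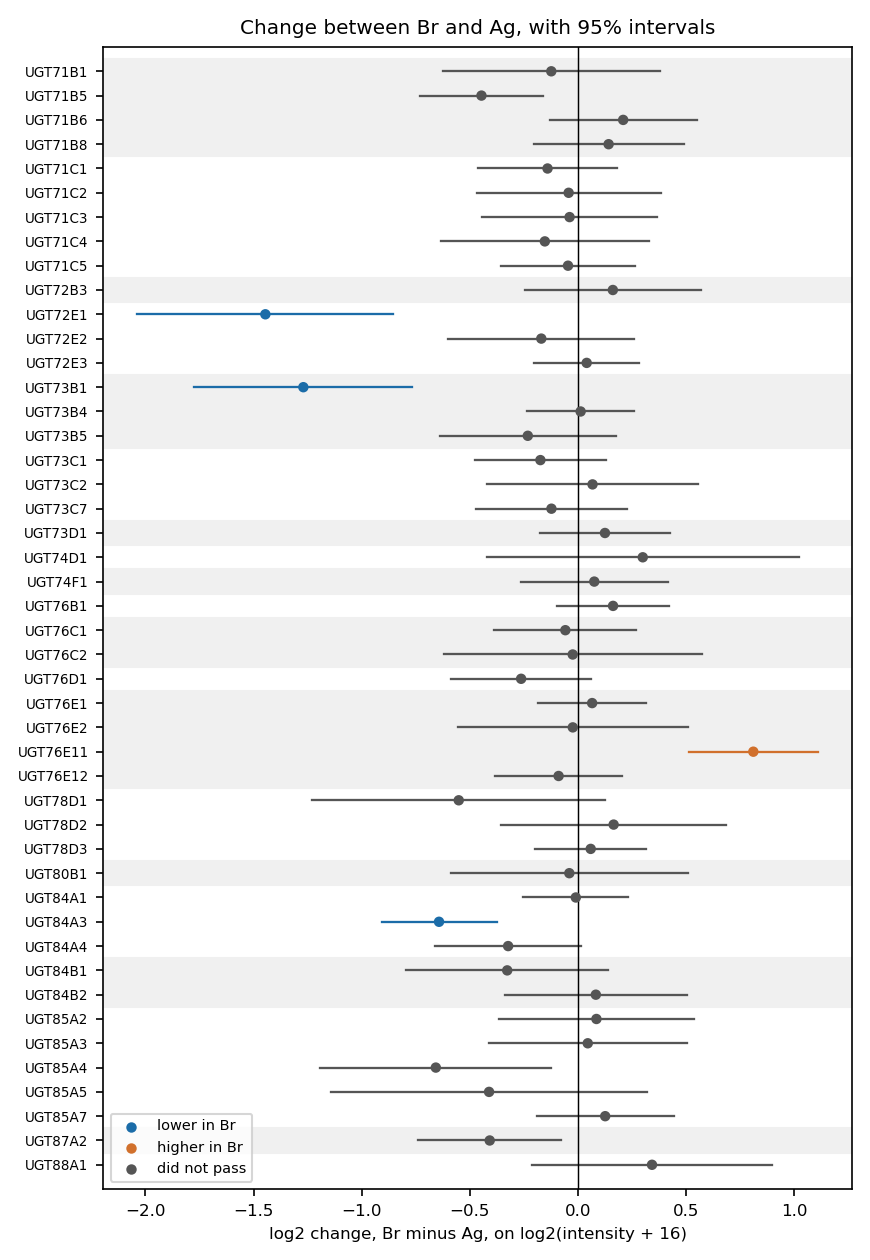
Log2 change between Br and Ag of each UGT gene (points) with its 95% interval from limma (lines), on the scale of log2(intensity + 16); rows are grouped by subfamily. UGT72E1, UGT73B1 and UGT84A3 lie left of 0 and UGT76E11 right of it. The shortest lines belong to dim genes, whose change the added 16 compresses, though other dim genes such as UGT76E2 have wide ones.

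The cytokinin N-glucosyltransferase genes UGT76C1 and UGT76C2 read above the array medians and did not pass (limma adjusted p = 0.90 and 0.98). UGT76C1 read 59.9, 46.7 and 62.4 in Ag and 66.9, 47.6 and 53.8 in Br, a log2 change of -0.059 (95% interval -0.39 to 0.27). UGT76C2 read 51.4, 109.7 and 57.3 in Ag and 66.3, 80.8 and 64.5 in Br. Its second Ag array was the highest of the 6, and its change had a wider interval, from -0.62 to 0.57 around -0.025.

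For salicylate and the defence signals tied to it, the measured genes were dim, and UGT74F1 and UGT76B1 were near the floor of the arrays. UGT74F1, which makes salicylate glucoside, read 1.16 to 2.36 in Ag and 1.15 to 7.94 in Br. UGT76B1, which acts on isoleucic acid, salicylate and N-hydroxypipecolate, read 0.747, 0.255 and 0.661 in Ag and 3.96, 2.84 and 1.71 in Br. All 3 Br values were above all 3 Ag values, at signals far below the array medians, and the log2 change of 0.16 did not pass (limma adjusted p = 0.54). UGT76D1, which glucosylates dihydroxybenzoic acids, read 7.76 to 19.0 in Ag and 8.07 to 8.85 in Br (limma adjusted p = 0.41).

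Among flavonoid enzymes, UGT78D1 adds rhamnose, UGT78D2 glucose and UGT78D3 arabinose to position 3 of the flavonol. UGT78D1 read 11.1, 33.6 and 33.2 in Ag and 8.89, 10.5 and 18.7 in Br. The first Ag array lay among the Br arrays, and the log2 change of -0.55 had a 95% interval from -1.23 to 0.13 (limma adjusted p = 0.41). UGT78D2 read 36.9, 57.3 and 43.8 in Ag and 39.0, 61.5 and 70.0 in Br, with a log2 change of 0.16 (95% interval -0.36 to 0.68). UGT78D3 was at 3.56 or less throughout.

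Genes for glucosylation of abscisic acid and auxin did not pass either. UGT71C5, which forms the glucose ester of abscisic acid, read 101, 94.0 and 87.8 in Ag and 109, 83.9 and 88.9 in Br. Its means of 94.2 ± 6.48 and 94.0 ± 13.4 (SD, n = 3) differed by less than the spread of either group, and the 95% interval of its log2 change ran from -0.35 to 0.26. UGT71B6, which also acts on abscisic acid, read 1.14, 0.479 and 0.270 in Ag and 3.13, 0.558 and 7.99 in Br, with a log2 change of 0.21 (limma adjusted p = 0.55).

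UGT74D1, an enzyme of auxin conjugation, read 29.6, 47.6 and 76.6 in Ag and 45.2, 79.5 and 80.9 in Br. Its groups overlapped, and its log2 change of 0.30 had a wide 95% interval, from -0.42 to 1.02. UGT84B1, which makes the glucose ester of the auxin indole-3-acetic acid, read 5.89 to 13.6 in Ag and 1.46 to 9.19 in Br, and its neighbour UGT84B2 0.305 to 7.72 and 1.84 to 8.13 (limma adjusted p = 0.49 and 0.88).

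Of the 4 probe sets with the highest mean signal, that of UGT72E1 passed, as described above, and 3 did not. UGT88A1 read 392, 534 and 785 in Ag and 684, 729 and 644 in Br. The Ag arrays enclosed all 3 Br values, with a mean of 570.3 ± 199 in Ag and 686 ± 42.8 in Br (SD, n = 3). The log2 change of 0.34 had a 95% interval from -0.21 to 0.89 (limma adjusted p = 0.54). It was 0.12 without the first Ag array and 0.60 without the third.

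UGT71C4 read 323, 298 and 401 in Ag and 374, 313 and 226 in Br, with a log2 change of -0.15 (95% interval -0.63 to 0.33). UGT80B1, a sterol glucosyltransferase gene, read 128, 113 and 80.1 in Ag and 142, 100 and 79.2 in Br. Its log2 change of -0.040 had a 95% interval from -0.59 to 0.51. The remaining UGT71C genes, UGT71C1, UGT71C2 and UGT71C3, read at most 9.34, too dim to resolve a change. None of the 5 UGT71C genes passed (limma adjusted p from 0.68 to 0.95). Their median log2 change was -0.047, and the sign of 4 of them turned under at least 1 alternative setting.

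Beyond the 4 called genes, 3 had an unadjusted limma p under 0.05, and each was lower in Br. UGT85A4 read 101, 138 and 71.7 in Ag and 65.2, 68.4 and 48.3 in Br, without overlap, and its log2 change was -0.66 (95% interval -1.19 to -0.12, limma adjusted p = 0.21). UGT87A2, known for a part in flowering time, read 43.3, 44.9 and 62.7 in Ag and 36.0, 34.7 and 36.2 in Br, a log2 change of -0.41 (limma adjusted p = 0.22). The dim UGT71B5 read 13.5, 7.35 and 10.7 in Ag and 3.38, 2.47 and 6.82 in Br, a log2 change of -0.45 (limma adjusted p = 0.13).

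The groups did not overlap, on the normalized scale, for 10 of the 46 genes, 2 with Br above Ag and 8 with Br below. In total that is 21.7% of the genes, close to the 20.4% of all probe sets. By direction it is 4.35% with Br above, beside 9.98% of all probe sets, and 17.4% with Br below, beside 10.4%. For 2 of the 10, UGT76D1 and UGT84A4, the deposited values overlapped.

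**Figure D3:**
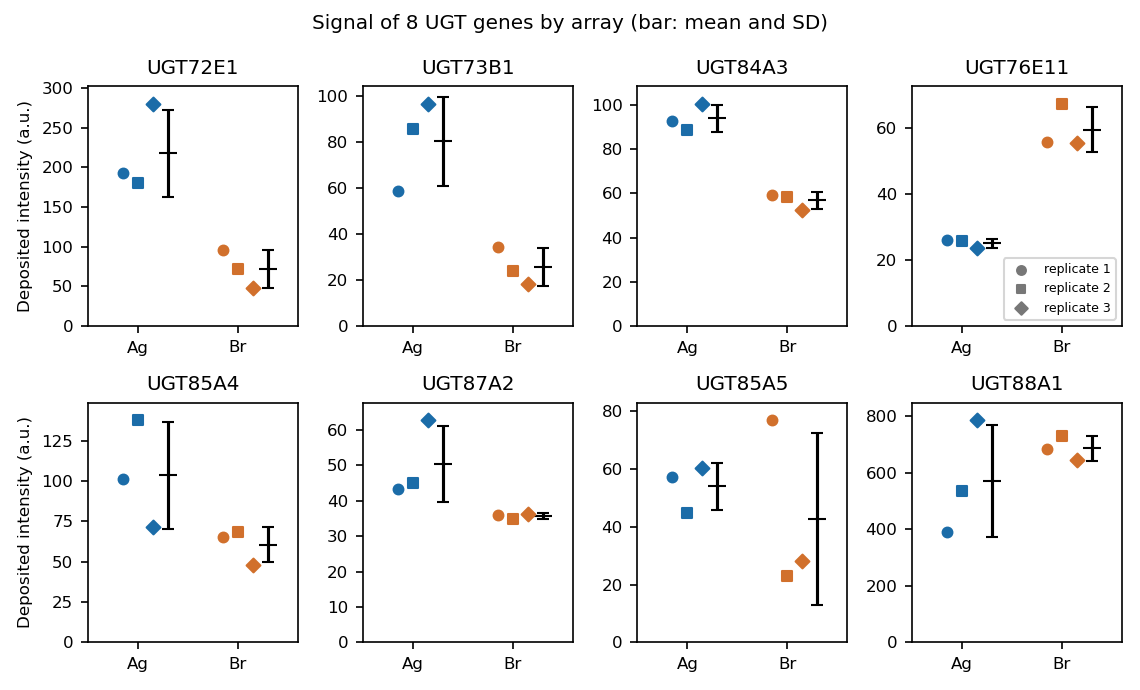
Deposited intensity of 8 UGT genes on each array (symbols mark replicate numbers, the bars the mean and SD of 3 arrays), with each axis starting at 0. In the top row the Ag and Br arrays of UGT72E1, UGT73B1, UGT84A3 and UGT76E11 do not overlap, while in the bottom row UGT85A5 and UGT88A1 overlap.

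The UGT85A subfamily was among those with most measured members, 5 genes, of which 4 are neighbours on chromosome 1. UGT85A5 stood out by its first Br array, with 76.8 there against 23.0 and 28.3 on the other Br arrays and 57.1, 44.8 and 60.2 in Ag. Its log2 change of -0.41 did not pass (limma adjusted p = 0.58), and without the first Br array it was -0.80 and passed (limma adjusted p = 0.039). Its neighbours UGT85A2, UGT85A3 and UGT85A7 were also highest on the first Br array, at 76.8, 26.9 and 29.9. Over the other 5 arrays they read 43.3 to 58.9, 9.91 to 19.7 and 16.0 to 26.4. The log2 changes of UGT85A2, UGT85A3 and UGT85A7 lay between 0.045 and 0.13 (limma adjusted p from 0.72 to 0.95). In the UGT71B subfamily, UGT71B1 read 40.7 to 62.8 in Ag and 33.0 to 62.8 in Br and UGT71B8 at most 6.63, and neither passed (limma adjusted p = 0.84 and 0.71).

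By position in the reference gene table, 31 of the 46 genes lie in 13 groups of neighbours with at most 2 protein-coding genes between one UGT gene and the next. UGT84A3 and UGT76E11 belong to such groups, and in neither did another measured member pass. UGT73B1 lies beside UGT73B2 and UGT73B3, which share a probe set and are not reported here. UGT72E1 has no UGT gene that near. Only the 58 genes whose symbol in the reference gene table is UGT followed by a digit counted as UGT genes here.

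**Figure D4:**
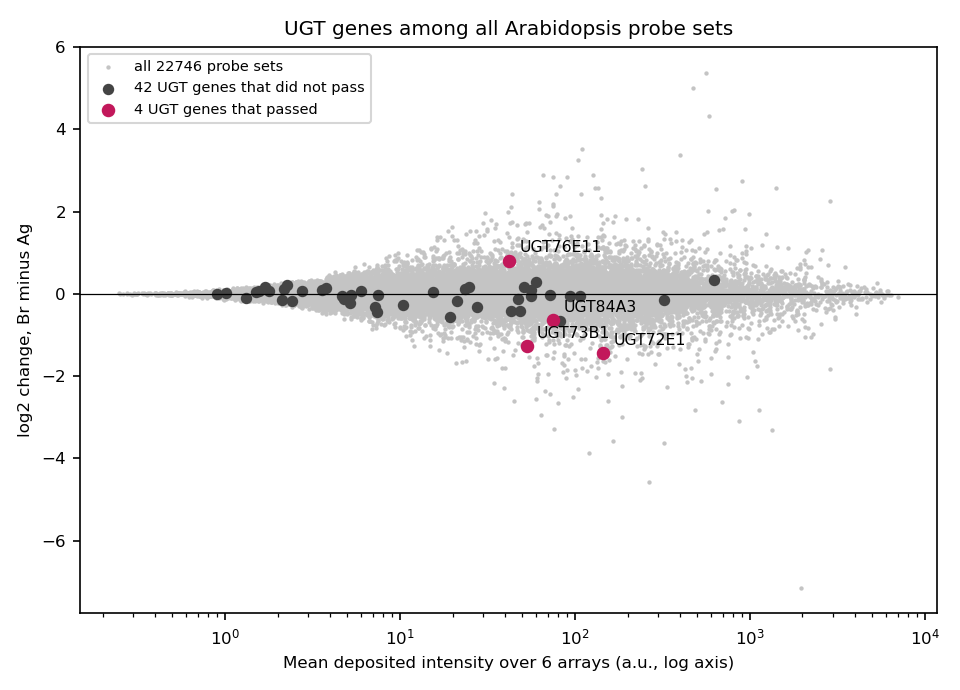
Log2 change between Br and Ag against the mean deposited intensity (log axis) for all 22746 probe sets (grey), 42 UGT genes that did not pass (black) and 4 that passed (red, named). The 4 lie between mean intensities of 42.3 and 145, and the spread of all probe sets narrows toward the dim end, where many UGT genes lie.

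The 4 called genes had mean signals between 42.3 and 145, in the brighter part of the UGT genes. They were thus among the 17 UGT genes with a mean of at least 32. Among all probe sets with such a mean, 3.16% passed. Of 35 UGT genes listed by known acceptor, 22 were measured. Of these, 2 passed, UGT72E1 and UGT84A3, beside 2.08% of all probe sets.

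No measured gene that supplies acceptors, or that acts beside UGTs in detoxification, was called, and few of the listed acceptor genes were measured. A gene counts as measured here if a probe set annotated to exactly 1 gene names it. Whether the arrays hold other probes for the rest was not checked. Over all probe sets 2.08% passed, a share at which lists this short can hold no call. Of 20 phenylpropanoid synthesis genes 3 were measured and 0 passed by limma, nor did any at an unadjusted p under 0.05. HCT, which commits p-coumaroyl units to lignin, read 577 ± 179 in Ag and 685 ± 256 in Br (SD, n = 3), and ALDH2C4, which oxidizes coniferyl and sinapyl aldehydes to ferulate and sinapate, 351 ± 46.0 and 298 ± 46.0. Their log2 changes were 0.25 (95% interval -0.57 to 1.07) and -0.21 (-0.59 to 0.17), and the third, the cinnamoyl-CoA reductase gene CCR2, read 1.58 ± 1.38 and 1.63 ± 0.38.

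Of 15 flavonoid genes, DFR, of anthocyanin synthesis, and BAN, of proanthocyanidin synthesis, were measured, with limma adjusted p of 0.71 and 0.69. The 16 listed genes for UDP-sugar synthesis were not analysed here, since no probe set used here names them. Glutathione S-transferases join glutathione to foreign compounds. Of 14 measured, 0 passed by limma, beside 2.08% of all probe sets. An unadjusted limma p under 0.05 was seen for 3 of the 14, beside 16.1% of all probe sets. Of the 3, ATGSTF13 and GSTU20 were higher in Br and GSTU28 was lower. The 14 genes had a median log2 change of 0.092 and a range from -0.46 to 0.61. The highest was GSTU20, at 1108 ± 336 in Ag and 1537 ± 250 in Br (SD, n = 3, limma adjusted p = 0.28).

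The calls of the 4 genes sat close to the threshold. UGT84A3 missed it when any 1 of the 6 arrays was left out (limma adjusted p from 0.051 to 0.15). UGT72E1 and UGT76E11 missed it when any array but the first Br array was left out (up to 0.15 and 0.12), and UGT73B1 when replicate 2 or 3 of either phenotype was left out (up to 0.14). The direction and rough size held in each case, with log2 changes from -1.65 to -1.23 for UGT72E1, -1.46 to -1.13 for UGT73B1, -0.67 to -0.60 for UGT84A3 and 0.72 to 0.86 for UGT76E11.

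**Figure D5:**
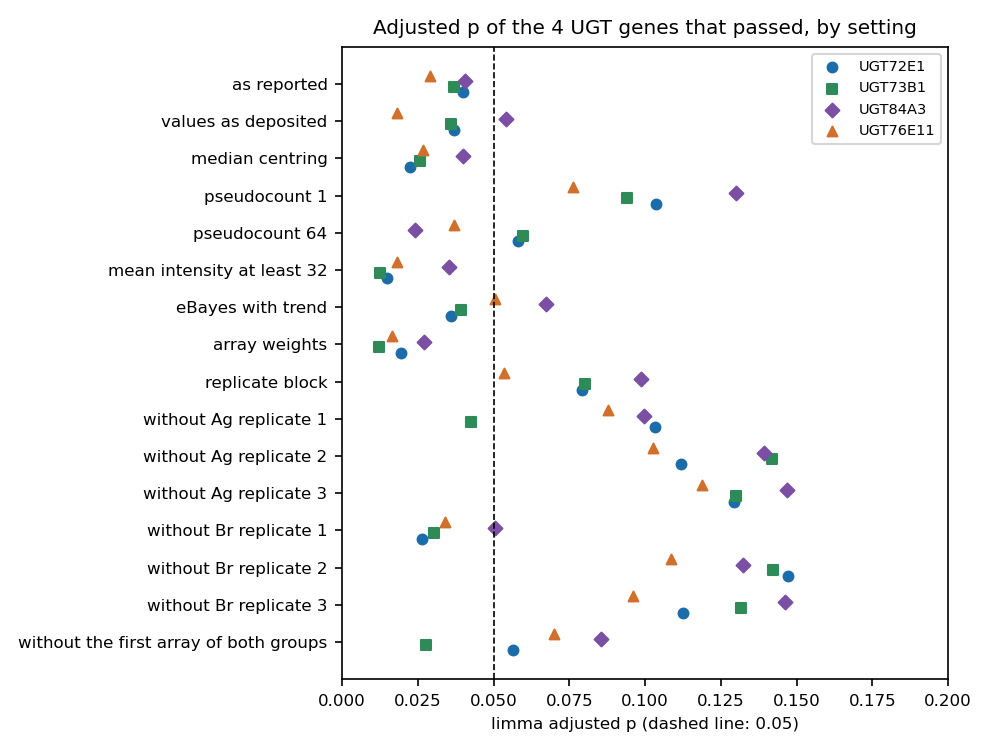
Limma adjusted p (horizontal axis; dashed line at 0.05) of the 4 UGT genes that passed, under the reported setting (top) and 15 other settings of scaling, pseudocount, filter, model and arrays. Leaving out replicate 2 or 3 of either phenotype, a pseudocount of 1 or the replicate block moves all 4 genes above 0.05.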

How the data were processed

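The 6 Arabidopsis arrays, 3 for each phenotype, were used, and the maize arrays were not. The deposited values are linear intensities, 1 per probe set and array, from biotin-labelled RNA of pooled plants per the labels' protocols. The software that summarised the probes is not given in the sources used here. On each array the mean without the lowest and highest 2% of probe sets is 100.0, so arrays had been scaled before deposit. After removal of 64 control probe sets, values were taken as log2(intensity + 16), where array medians ran from 5.59 to 5.74, and quantile-normalized. Br was tested against Ag with the two-sided moderated test of limma 3.58.1 under R 4.3.3, with p-values adjusted by Benjamini-Hochberg across the whole array and called under 0.05. The fit was tested on simulated data. The small number of arrays limits precision. Figures come from matplotlib 3.10.9.

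Probe sets took their gene from the platform annotation at GEO, updated through the gene identifier and the RefSeq TAIR10.1 gene table, which also gave the order of genes. Genes named by rule were those that passed, the 4 largest changes in each direction, the 4 of highest mean signal and a list of known acceptors, of which dim ones are given as ranges. Others are given by subfamily, some with the value of each array chosen after these were seen, as were the 2 pairs of mates. The members and lists were chosen with earlier results of these data known. Alternatives covered scaling, pseudocount, dim probe sets, trend, array weights, replicate block, threshold and arrays left out. Same-numbered arrays were not taken as pairs (correlations of deviations 0.32, 0.029 and 0.11).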

Additional observations from a re-analysis of the deposited data

How the results depend on the processing

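Over 16 alternatives, no gene reversed a called direction. The 4 UGT calls (1 higher, 3 lower) stayed at 3 or 4 with values as deposited, median centring, array weights, or probe sets of mean at least 32. They became 0 (0 and 0) with a pseudocount of 1, at a threshold of 0.01 or under the replicate block, 2 (1 and 1) with a pseudocount of 64 and 2 (0 and 2) with a trend. Without the first array of both groups the count was 1 (0 and 1), UGT73B1. With any 1 array left out it ran from 0 to 4 (0 to 1 higher, 0 to 3 lower). It was 0 without replicate 2 or 3 of either phenotype, 1 without the first Ag array, and 4, with UGT85A5 in place of UGT84A3, without the first Br array. Over all probe sets, 473 passed; it was 148 with a pseudocount of 1, 889 with array weights, 111 at 0.01, and 105 to 884 with 1 array left out. The cause was not tested. UGT84A3 also missed with values as deposited (limma adjusted p = 0.054). The median log2 change of the 46 genes stayed between -0.058 and -0.012 with 1 array left out. Of the genes that did not pass, 18 changed sign under at least 1 alternative without passing. Each gene had 1 probe set, so the choice of probe set could not be varied. With the block, adjusted p of the 4 genes rose to between 0.053 and 0.099. The replicate numbers were not taken as pairing, since 1 of 3 correlations was under 0.1, and not every array correlated best with its own number.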
